A study of Homo sapiens with 30 samples.

Results

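A set of 10 weakly expressed genes of HEK293 cells was followed through all groups of a transfection study: KRT3, MYPN, C6orf163, PM20D1, CALHM1, LINC00858, LINC00485, F11-AS1, JAZF1-AS1 and IRS3P. They are 10 of the 58278 genes in the deposited files and 10 of the 22321 genes that passed the filter on low counts, so none was lost to the filter. That filter used all 10 groups, so a gene could pass through groups other than the compared ones. They were selected on measured values, their lower counts when several missense-correcting tRNAs (mc-tRNAs) were added, Arg-tRNA_Gln(CUG) among them. Their changes with the mc-tRNAs are therefore described here and not tested, and counts of them support nothing about the choice.

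HEK293 is an established human embryonic kidney line. Cells labelled as wild type (wt) received, by lipofection, a plasmid with a mistranslation reporter, an EGFP variant fused to mCherry, and the mCherry-positive cells were sorted 48 h later. Strand-specific libraries were made from polyA-selected RNA of 3 independent replicates in each of 10 groups. Of these, 5 groups had a reporter alone and in 5 the same plasmid also carried the matching mc-tRNA. The reporter EGFP(R65) was paired with Ser-tRNA_Arg(CCG), EGFP(R96Q) with Arg-tRNA_Gln(CUG), EGFP(R96C) with Arg-tRNA_Cys(GCA), EGFP(R96H) with Arg-tRNA_His(GUG), and EGFP(R96W) with Arg-tRNA_Trp(CCA). All 30 libraries thus share transfection, a reporter and sorting, and none comes from untransfected cells. The design asks how an mc-tRNA affects cellular mRNA levels, and each mc-tRNA is set against its own reporter alone.

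An mc-tRNA is engineered to carry a residue that differs from the one its anticodon normally calls for, so that a missense codon is read as the original residue. Such a tRNA can also place that residue at matching codons of other messages. The 10 genes belong to no common pathway. Some are known from differentiated tissues other than kidney: KRT3 is a type II keratin of the corneal epithelium, MYPN encodes myopalladin of the muscle Z-disc, and CALHM1 a large-pore channel used in taste cells. PM20D1 encodes a secreted enzyme that joins and splits N-acyl amino acids. C6orf163 is an open reading frame of unclear role. LINC00858 and LINC00485 are long intergenic non-coding RNAs, F11-AS1 and JAZF1-AS1 are antisense to F11 and JAZF1, and IRS3P is a processed pseudogene of an insulin receptor substrate.

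In the GRCh38 annotation of GENCODE release 29 the genes lie on 6 autosomes. KRT3 is at chr12:52789685-52796117 on the minus strand, and LINC00485 is on the same chromosome at chr12:102809280-102824399, also minus. Chromosome 10 holds MYPN at chr10:68106117-68212017 (plus), LINC00858 at chr10:84279980-84294659 (plus) and CALHM1 at chr10:103453387-103458888 (minus). IRS3P at chr7:100570131-100571136 and JAZF1-AS1 at chr7:28180322-28243917 are both on the plus strand. C6orf163 is at chr6:87344849-87365463 (plus), PM20D1 at chr1:205828022-205850132 (minus) and F11-AS1 at chr4:186286094-186500997 (minus). No pair of the 10 genes overlaps.

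Promoters were compared as a description, since the genes were chosen for lower counts with several mc-tRNAs and are not neighbours. RefSeq sequences (GRCh38.p14) were matched for 7 of the 10 genes; C6orf163, LINC00858 and IRS3P were not among them. The 100 bases before the RefSeq start are shown, on the gene's own strand, for the 5 genes with a TATA box or CCAAT box, with these motifs in capitals. A motif on the opposite strand reads as its reverse complement, as the TATA box of MYPN does. They come from chr12:52796118-52796217 (KRT3, minus), chr10:68109388-68109487 (MYPN, plus), chr1:205850133-205850232 (PM20D1, minus), chr4:186501059-186501158 (F11-AS1, minus) and chr10:103458901-103459000 (CALHM1, minus). The RefSeq start of MYPN differs from its GENCODE start at 68106117, so its window lies inside the GENCODE gene.

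KRT3: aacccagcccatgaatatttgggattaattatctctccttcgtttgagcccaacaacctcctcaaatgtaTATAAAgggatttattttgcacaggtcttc

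MYPN: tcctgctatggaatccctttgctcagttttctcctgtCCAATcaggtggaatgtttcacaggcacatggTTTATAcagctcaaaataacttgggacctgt

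PM20D1: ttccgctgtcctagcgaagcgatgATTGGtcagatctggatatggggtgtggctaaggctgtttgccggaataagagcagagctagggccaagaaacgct

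F11-AS1: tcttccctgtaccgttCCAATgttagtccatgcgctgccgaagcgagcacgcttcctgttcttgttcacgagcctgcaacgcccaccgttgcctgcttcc

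CALHM1: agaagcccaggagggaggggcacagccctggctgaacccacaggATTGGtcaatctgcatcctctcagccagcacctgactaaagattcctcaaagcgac

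TATAAA was found, on either strand of the 250 bases before the start, in KRT3 and MYPN, 2 of the 7 genes, and in 10.7% of all 35116 promoters. CCAAT was found in MYPN, PM20D1, F11-AS1 and CALHM1, 4 of 7, against 32.0% of all promoters. The GC box GGGCGG was in PM20D1, LINC00485, CALHM1 and JAZF1-AS1, again 4 of 7, against 42.6%. TGANTCA (AP-1), TGACGTCA (the cAMP response element), CACGTG (the E-box) and the B box of tRNA genes were in none of the 7, and in 6.57%, 1.65%, 6.34% and 0.151% of all promoters. GC content ran from 39.2% in MYPN to 85.2% in JAZF1-AS1, with a median of 58% over all promoters. No motif searched was thus shared by all 7 genes, and these matches describe letters only.

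The libraries held 39017548 to 55446962 counts in genes. Levels are given in CPM, counts relative to a TMM-scaled library size. Where a gene has no count, up to 3 counts remain possible, or 0.0541 to 0.0769 CPM by the unscaled total. Floors and intervals cover counting error only, and a bound against the floor takes the counts of the other group as exact. ERCC spike-in counts were 0 in the 6 EGFP(R65) libraries, so the lack of spike-in counts and the R65 reporter cannot be told apart. In the other libraries ERCC counts moved with the 10 genes. They were 78 to 106 in EGFP(R96Q) alone and 27 to 50 with its mc-tRNA, 52 to 82 and 20 to 40 for EGFP(R96C), 34 to 61 and 25 to 32 for EGFP(R96W), and 20 to 22 and 10 to 17 for EGFP(R96H). They were thus lower in every library with an mc-tRNA than in any library of its reporter alone, as most of the 10 genes were, and their part in the changes described here was not tested. Genes usual in HEK293 summed to 564 to 808 CPM over 8 genes, led by VIM. Several defining markers of other tissues were near 0: KRT12, the corneal partner of KRT3, reached at most 0.0337 CPM, MYH7 of muscle 0.253, KRT14 of keratinocytes 0.0249 and PTPRC of blood 0.0996. Others were not: DES of muscle reached 11.9 CPM, ALB of liver 10.2 and COL1A1 of stroma 47.8. p-values here rest on the spread between replicates within groups, estimated in the main fit over the 30 libraries of all 10 groups. They do not rest on the compared libraries alone. In sorted bulk cells fewer expressing cells and less RNA per cell cannot be told apart.

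Averaged over all 30 libraries, the 10 genes had 0.478 CPM (CALHM1) to 3.34 CPM (C6orf163). CALHM1 lay above 24.2% of the tested genes and C6orf163 above 44.3%, so all 10 were in the lower part of the range. Per length, in RPKM (CPM per kilobase of exon) and in the EGFP(R96Q) reporter alone, C6orf163 was highest at 3.45 ± 0.59 (SD, n = 3) and JAZF1-AS1 lowest at 0.571 ± 0.040.

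**Figure D1:**
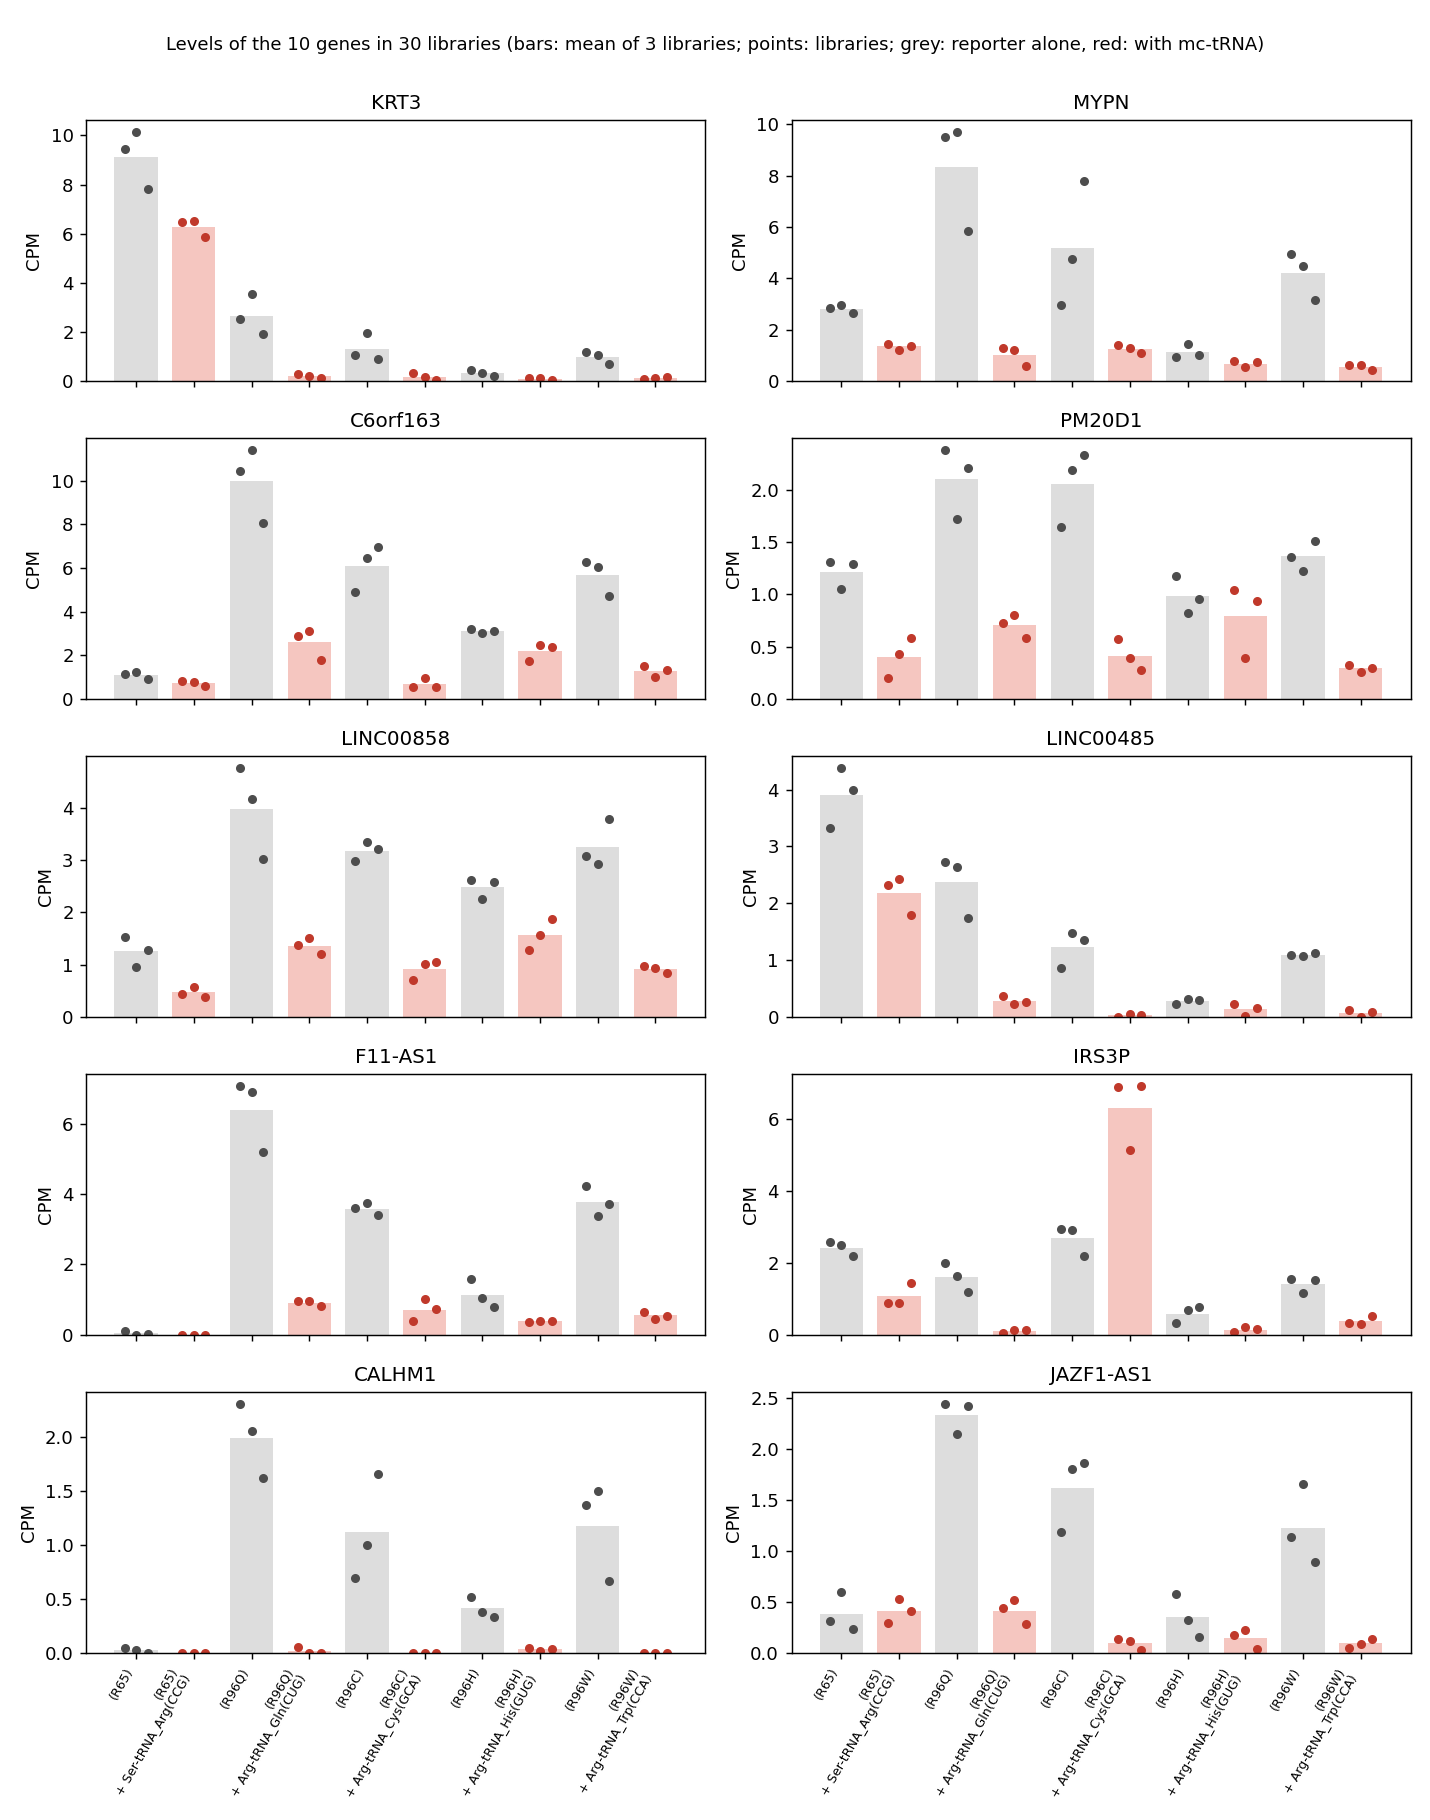
Level in CPM (vertical axis, linear from 0) of each of the 10 genes in the 10 groups; points are libraries, bars are means of 3, grey is the reporter alone and red the reporter with its mc-tRNA. With Arg-tRNA_Gln(CUG) and Arg-tRNA_Trp(CCA) all red points lie below the grey points of the same reporter in all 10 panels, while IRS3P is higher with Arg-tRNA_Cys(GCA).

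With Arg-tRNA_Gln(CUG) all 10 genes fell, which means an adjusted p under 0.05 in edgeR's quasi-likelihood test over all 22321 genes and a negative change. Of all genes, 0.278% fell in that comparison, and since it chose the members nothing is read from their count. Of all genes 62 fell, but 27 without Arg-tRNA_Gln(CUG) replicate 3, 31 without EGFP(R96Q) replicate 2, and 41 without EGFP(R96Q) replicate 1 or Arg-tRNA_Gln(CUG) replicate 2. In all 10 genes every library with the mc-tRNA was below every library without it, which held for 7.88% of all genes. The median change of the 10 genes was -2.91 on the log2 scale, beside 0.00 over all genes. The smallest change was that of LINC00858, which fell by 1.54 ± 0.18 (SE).

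Among the protein-coding genes, KRT3 had 116, 167 and 104 counts in the 3 EGFP(R96Q) libraries and 14, 9 and 7 with the mc-tRNA, a log2 change of -3.75 ± 0.34. MYPN had 436, 456 and 320 counts alone and 68, 59 and 31 with it, a change of -3.01 ± 0.29. Both groups were well apart in each gene, and the third library was the lowest with the mc-tRNA in both. CALHM1 had 106, 97 and 89 counts alone and 3, 0 and 0 with the mc-tRNA. The ratio of its summed levels was 101, with a 95% counting interval of 34.4 to 494, so its message was close to the detection floor once the mc-tRNA was present. C6orf163 had 10.4, 11.4 and 8.07 CPM alone and 2.89, 3.12 and 1.77 with it (-1.94 ± 0.18). PM20D1 went from 109, 81 and 121 counts to 38, 39 and 31 (-1.58 ± 0.26). These last genes kept a readily counted level.

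Of the non-coding genes, F11-AS1 had 324, 325 and 285 counts in EGFP(R96Q) alone and 50, 46 and 43 with Arg-tRNA_Gln(CUG), a change of -2.82 ± 0.23. LINC00485 had 125, 124 and 96 counts alone and 19, 11 and 14 with it (-3.04 ± 0.32). IRS3P had 91, 77 and 66 counts alone and 2, 7 and 7 with it (-3.91 ± 0.37). In each of these the replicates lay close together beside the gap between groups. JAZF1-AS1 had 2.44, 2.15 and 2.42 CPM alone and 0.437, 0.516 and 0.283 with it (-2.50 ± 0.35), and LINC00858 had 218, 196 and 166 against 72, 73 and 64.

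With Arg-tRNA_Trp(CCA) all 10 genes also fell, against 21.7% of all genes, with a median change of -2.83 beside -0.03 over all genes. CALHM1 went from 68, 75 and 29 counts to 0, 0 and 0, at least 52.1-fold lower against a floor of 3 counts over the group. LINC00485 went from 54, 54 and 49 counts to 5, 0 and 4, and JAZF1-AS1 from 56, 83 and 39 to 2, 4 and 6 (-3.70 ± 0.47). KRT3 had 58, 52 and 31 counts alone and 4, 5 and 8 with the mc-tRNA. The groups did not overlap in any of the 10 genes, which was so for 25.7% of all genes. The smallest change was again that of LINC00858, at -1.83 ± 0.20.

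With Arg-tRNA_Cys(GCA) 9 of the 10 genes fell, against 30.5% of all genes, and IRS3P rose, as did 30.2% of all genes. The median change of the 10 was -2.59 beside -0.04 over all genes. LINC00485 had 36, 66 and 81 counts in EGFP(R96C) alone and 0, 2 and 1 with the mc-tRNA, a ratio of 40.7 with a counting interval of 13.7 to 199. CALHM1 had 29, 45 and 99 counts alone and none in the 3 libraries with it, at least 38.5-fold lower. C6orf163 had 206, 289 and 415 counts alone and 16, 34 and 18 with it (-3.14 ± 0.24), and JAZF1-AS1 50, 81 and 111 against 4, 4 and 1 (-4.10 ± 0.49). MYPN was the most variable before the mc-tRNA was added: its 3 libraries of EGFP(R96C) alone held 125, 213 and 464 counts, against 42, 46 and 35 with it (-2.05 ± 0.30).

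IRS3P had 2.95, 2.90 and 2.20 CPM in EGFP(R96C) alone and 6.88, 5.13 and 6.90 with Arg-tRNA_Cys(GCA). The means were 2.68 ± 0.42 and 6.30 ± 1.01 CPM (SD, n = 3), a log2 change of 1.24 ± 0.22. No library of either group overlapped the other. Scaling by library totals alone lowered the median change of all genes with this mc-tRNA from -0.04 to -0.59, and the rise of IRS3P to 0.69. With the other 4 mc-tRNAs IRS3P was lower in every library than in its reporter alone.

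With Arg-tRNA_His(GUG) all 10 genes were lower on average, but 5 of them fell by the test: KRT3, LINC00858, F11-AS1, IRS3P and CALHM1, against 0.95% of all genes. None rose, against 1.56% of all genes. The median change was -1.18 beside -0.00 over all genes. CALHM1 had 29, 20 and 19 counts in EGFP(R96H) alone and 2, 1 and 2 with the mc-tRNA, a ratio of 12.1 with a counting interval of 4.93 to 38.4. F11-AS1 had 88, 54 and 44 counts alone and 16, 19 and 21 with it (-1.55 ± 0.29). In 8 of the 10 genes every library with the mc-tRNA was below every library without it, which held for 12.9% of all genes. The groups overlapped in PM20D1, with 65, 43 and 54 counts alone and 47, 19 and 49 with it. They also overlapped in JAZF1-AS1, with 32, 17 and 9 against 8, 11 and 2. KRT3 had 24, 18 and 12 counts against 5, 5 and 2. Its call and that of LINC00858 were lost when the EGFP(R65) libraries were left out of the fit, which left 3 of the 10. Leaving out EGFP(R96H) replicate 1 or 2 or Arg-tRNA_His(GUG) replicate 2 left 3, EGFP(R96H) replicate 3 or Arg-tRNA_His(GUG) replicate 1 left 2, and Arg-tRNA_His(GUG) replicate 3 left 4. The count over all genes moved as well: 212 fell, but 10 without Arg-tRNA_His(GUG) replicate 1, 18 without EGFP(R96H) replicate 3, 54 without Arg-tRNA_His(GUG) replicate 2 and 70 without EGFP(R96H) replicate 2.

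With Ser-tRNA_Arg(CCG) 7 of the 10 genes fell, against 30.7% of all genes, and none rose, against 26.6%. The median over the 9 genes with more than 3 counts in a group, with F11-AS1 at its bound, was -0.999, beside -0.02 over all genes. PM20D1 had 58, 42 and 56 counts in EGFP(R65) alone and 9, 18 and 24 with the mc-tRNA (-1.59 ± 0.31), and LINC00858 68, 38 and 56 against 20, 24 and 16 (-1.42 ± 0.24). KRT3 had the smallest of these 7 changes: 420, 405 and 340 counts became 290, 271 and 242, a change of -0.54 ± 0.22, and its call was lost with DESeq2, with RLE scaling factors and without any 1 library except EGFP(R65) replicate 3. F11-AS1 lost its call without EGFP(R65) replicate 1 or any 1 Ser-tRNA_Arg(CCG) library. It and CALHM1 passed the filter only through their levels in the EGFP(R96) groups, so little is read from their values here. F11-AS1 had 5, 0 and 1 counts alone and none with the mc-tRNA, 2.0-fold lower against a floor of 3 counts over the group. That value takes the few reporter counts as exact, most of them from 1 library, and the groups overlapped at 0. CALHM1 had 2, 1 and 0 counts against none, too few for a fold. JAZF1-AS1 had 14, 24 and 10 counts alone and 13, 22 and 17 with it, so its groups overlapped throughout.

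**Figure D2:**
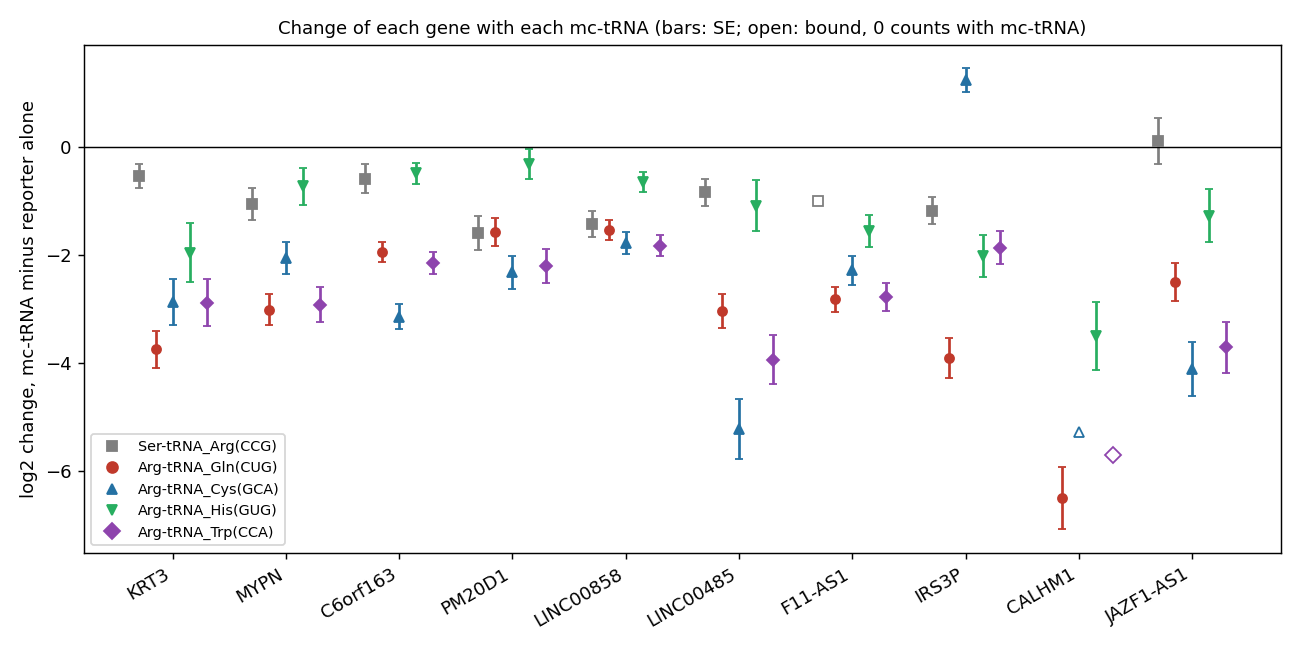
Log2 change (vertical axis) of each gene with each of the 5 mc-tRNAs against its reporter alone, with SE bars; open symbols are bounds where no count was left. IRS3P with Arg-tRNA_Cys(GCA), at 1.24, and JAZF1-AS1 with Ser-tRNA_Arg(CCG), at 0.11, are the points above 0.

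Over the 5 comparisons, KRT3, LINC00858 and F11-AS1 fell in 5, MYPN, PM20D1, LINC00485, IRS3P and CALHM1 in 4, as did 0.318% of all genes, and C6orf163 and JAZF1-AS1 in 3, as did 7.07%. Those 3 were the genes of all 22321 that fell in 5 (0.0134%). Each reached 5 through a call that some refits lost. These calls were KRT3 and F11-AS1 with Ser-tRNA_Arg(CCG), and KRT3 and LINC00858 with Arg-tRNA_His(GUG). That of F11-AS1 with Ser-tRNA_Arg(CCG) rested on 6 counts in EGFP(R65) alone against 0. All 4 comparisons within EGFP(R96) reporters were reached by 5 genes (0.0224%), 4 of them members: the same 3 and CALHM1. At least 4 comparisons with Arg-tRNA_Gln(CUG) among them were reached by 19 genes (0.0851%), of which 8 are members; this is what the choice used, so it is no support. The other 11 include TEKT2, with log2 changes of -1.24 with Arg-tRNA_Gln(CUG) and -1.54 with Arg-tRNA_Cys(GCA), LINC00029, PLAC1 and TNFRSF19. Their changes with Arg-tRNA_Gln(CUG) spanned those of several members: ENSG00000251131 was at -3.21, ENSG00000236075 at -2.39 and LINC00029 at -2.33, beyond PM20D1 and LINC00858, while TNFRSF19 was at -0.49 and PLAC1 at -0.50. C6orf163 just missed its call with Ser-tRNA_Arg(CCG), at -0.59 ± 0.26.

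Levels also differed between the reporters alone. Among the 4 EGFP(R96) reporters without mc-tRNA, EGFP(R96H) had the lowest mean in all 10 genes and EGFP(R96Q) the highest in 9, IRS3P being highest in EGFP(R96C). The ratio of the highest to the lowest mean ran from 1.60 in LINC00858 to 8.45 in LINC00485. KRT3, for example, was 2.66 ± 0.83 CPM in EGFP(R96Q), 1.30 ± 0.56 in EGFP(R96C), 0.973 ± 0.239 in EGFP(R96W) and 0.330 ± 0.111 in EGFP(R96H) (SD, n = 3), with libraries of the first pair overlapping and those of EGFP(R96W) and EGFP(R96H) apart. These groups were the controls of the comparisons that chose the members, so the order is a description. ERCC counts had the same order of reporters, highest in EGFP(R96Q) and lowest in EGFP(R96H), and their part in it was not tested.

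EGFP(R65) stood differently. KRT3 at 9.13 ± 1.19 CPM and LINC00485 at 3.90 ± 0.53 CPM were highest there among the reporters alone. With Ser-tRNA_Arg(CCG) they were at 6.27 ± 0.37 and 2.18 ± 0.34 CPM, which for KRT3 was above, and for LINC00485 overlapping, their EGFP(R96Q) libraries. F11-AS1, at 0.0452 ± 0.0595 CPM, and CALHM1, at 0.0233 ± 0.0226 CPM, were at the floor in EGFP(R65) and at 6.38 ± 1.04 and 1.997 ± 0.348 CPM in EGFP(R96Q). C6orf163 was 1.10 ± 0.18 CPM in EGFP(R65) against 9.96 ± 1.71 in EGFP(R96Q). The 10 genes therefore do not share one order over all 5 reporters.

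**Figure D3:**
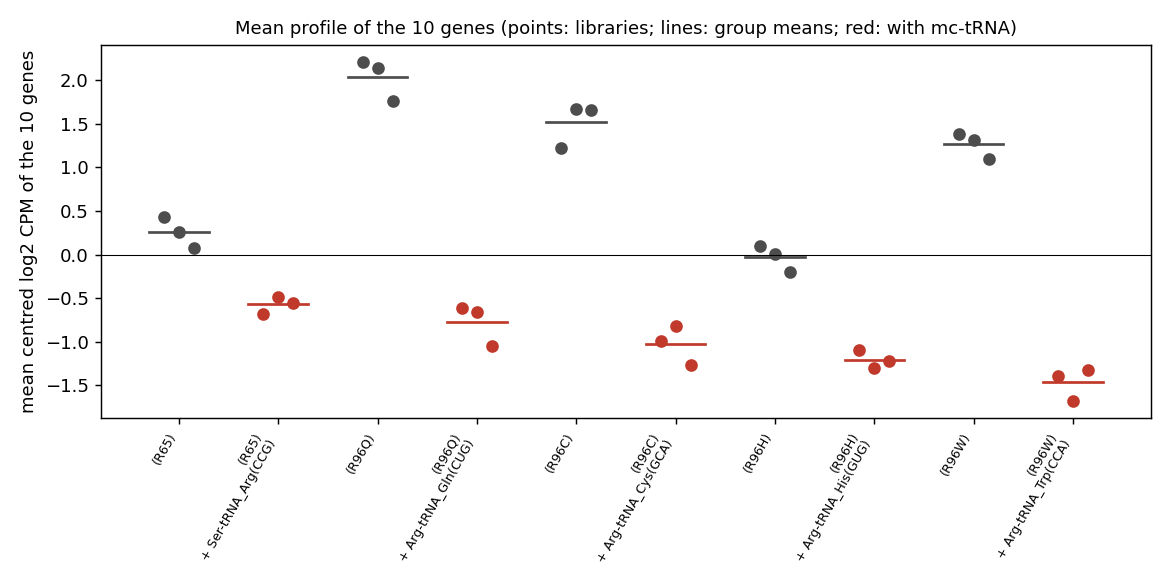
Mean over the 10 genes of log2 CPM, each gene centred on its own mean over 30 libraries (vertical axis), by group; points are libraries and lines group means, grey for reporters alone and red with the mc-tRNA. The EGFP(R96Q) libraries lie at 1.77 to 2.22 and the EGFP(R96H) libraries at -0.19 to 0.09, and all red points lie below all grey points.

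The mean profile of the 10 genes, each centred on its own mean log2 CPM, was -1.68 to -0.49 in the 15 libraries with an mc-tRNA and -0.19 to 2.22 in the 15 without. It followed MYPN (Pearson r = 0.95 over 30 libraries), JAZF1-AS1 (0.92) and CALHM1 (0.90) most closely and IRS3P least (0.44). Each of these genes is itself part of the mean profile, so its r is in part built in. After each group's mean was removed, the 45 pairs of members had a median r of 0.16, from -0.47 to 0.69, and 29 pairs were above 0. KRT3 with JAZF1-AS1 (0.69) and MYPN with CALHM1 (0.64) were the highest pairs. Without removing group means the median r was 0.59, and the members were selected on such differences between groups. These points share libraries and depth, and at these counts a weak correlation is no finding.

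The genes most like the mean profile outside the set were RNU2-49P (r = 0.89 over 30 libraries), ENSG00000271519 (0.85), LINC00029 (0.82), TCF15 (0.81) and GAPDHP49 (0.81). All are even less abundant: TCF15 had 293 counts summed over the 15 libraries without mc-tRNA and 40 over the 15 with it, and RNU2-49P had 125 and 15. At the other end were ENSG00000261292 (-0.75), GPR157 (-0.73), PTPN9 (-0.72), MYO1D (-0.71) and SYNM (-0.71), whose counts differed far less: GPR157 had 11208 and 12295.

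Neighbouring genes were not used in the choice and were tested. Of 28 genes that overlap a member or lie closest to it, 11 were tested, and with Arg-tRNA_Gln(CUG) none was called in edgeR or DESeq2, against 0.551% of all genes, while 1 had an unadjusted p under 0.05. The numbers that rose and fell were 4 and 4 with Ser-tRNA_Arg(CCG), 3 and 5 with Arg-tRNA_Cys(GCA) and 2 and 2 with Arg-tRNA_Trp(CCA), where 57.3%, 60.7% and 42.5% of all genes were called. With Arg-tRNA_His(GUG) none was called in edgeR, 1 was in DESeq2 and 2 had an unadjusted p under 0.05, against 2.51% of all genes called. The neighbours' median change with Arg-tRNA_Gln(CUG) was -0.00. So few genes were called in that comparison that no call among 11 tells little. Since it also chose the members, a gap there between a member and its neighbours is built in, and the pairs below are descriptions.

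**Figure D4:**
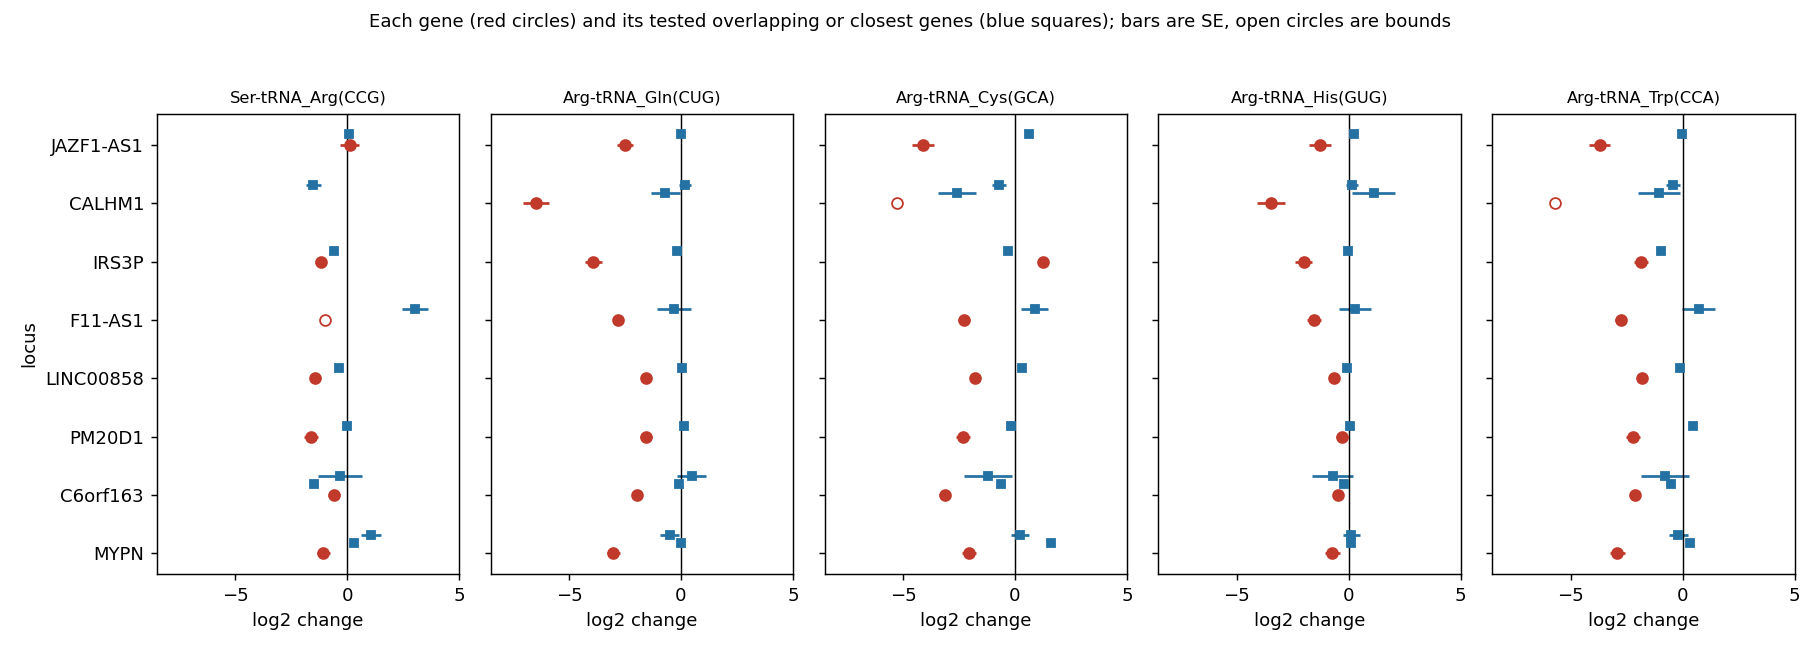
Log2 change (horizontal axis) of 8 members with tested neighbours (red circles, open where the value is a bound) and of those neighbours with more than 3 counts in both groups (blue squares), with SE bars, in 1 panel per mc-tRNA. With Arg-tRNA_Gln(CUG) the neighbours lie between -0.70 and 0.48 and the members between -6.49 and -1.54. The members were chosen on this comparison, so this gap is built in.

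SMIM8, a small membrane protein gene that overlaps C6orf163 on the same strand, had 1688 counts in EGFP(R96Q) alone and 1620 with Arg-tRNA_Gln(CUG), a change of -0.11 ± 0.10 (edgeR adjusted p = 0.788), where C6orf163 fell by 1.94 ± 0.18. With Ser-tRNA_Arg(CCG) the order was the other way: SMIM8 fell by 1.46 ± 0.11 (edgeR adjusted p = 1.65e-13) and C6orf163 had -0.59 ± 0.26. SMIM8 also fell with Arg-tRNA_Cys(GCA), by 0.61 ± 0.10, and with Arg-tRNA_Trp(CCA), by 0.52 ± 0.10. The other overlap of C6orf163, ENSG00000279616, held 4 to 41 counts per group and was not called with any mc-tRNA. SMIM8 was not among the 3 genes whose transcripts share the most 31-base stretches with those of C6orf163.

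JAZF1, a zinc finger gene on the strand opposite JAZF1-AS1, had 3061 and 3175 counts without and with Arg-tRNA_Gln(CUG), a change of -0.00 ± 0.08, where its antisense partner fell by 2.50 ± 0.35. With Arg-tRNA_Cys(GCA) JAZF1 rose by 0.61 ± 0.08 (edgeR adjusted p = 1.62e-08), which became 0.06 with library totals (adjusted p = 0.497), and JAZF1-AS1 fell. F11, which encodes coagulation factor XI, had 12 and 13 counts in the Arg-tRNA_Gln(CUG) comparison and was not tested; F11-AS1 was at 6.38 ± 1.04 and 0.904 ± 0.079 CPM in the same libraries. Whether the counting used strand is not given in the sources used here, so antisense pairs are uncertain. The other overlaps of F11-AS1 were SLC25A5P6, with 15 and 11 counts, and ENSG00000272297, with none, and RN7SKP202 within MYPN had none.

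ENSG00000234699, antisense to CALHM1, had 28 and 18 counts without and with Arg-tRNA_Gln(CUG) (-0.70 ± 0.66, edgeR adjusted p = 0.799), where CALHM1 went from 292 counts to 3. It fell with Arg-tRNA_Cys(GCA), from 38 counts to 4, and rose with Ser-tRNA_Arg(CCG), from 0 to 13. CALHM2, the paralogue beside CALHM1, changed by 0.18 ± 0.28 with Arg-tRNA_Gln(CUG) and fell with Ser-tRNA_Arg(CCG) by 1.51 ± 0.33. Further neighbours with a change of at least 2-fold were KLKB1 beside F11-AS1 (plasma kallikrein, 3.03 ± 0.58 with Ser-tRNA_Arg(CCG)), HERC4 beside MYPN (a ubiquitin ligase, 1.61 ± 0.07 with Arg-tRNA_Cys(GCA)) and ATOH7 beside MYPN (a retinal transcription factor, 1.07 ± 0.46 with Ser-tRNA_Arg(CCG)). The call of ATOH7 was lost with library totals (1.04, edgeR adjusted p = 0.0523). Summed liver markers were 9.02 to 10.8 CPM with Ser-tRNA_Arg(CCG) against 0.666 to 0.925 in EGFP(R65) alone, and their part in the KLKB1 change was not tested.

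Lists of related genes held 78 genes, 46 of them tested. With Arg-tRNA_Gln(CUG) 1 of the 46 was called: KRT80, a keratin, which fell by 3.39 ± 0.65 (edgeR adjusted p = 0.00559) from 0.365 to 0.0327 CPM, near the floor, while DESeq2 gave it no adjusted p and called 1 other list gene, a rise. At an unadjusted p under 0.05 there were 6 of the 46. KRT80 also fell with Ser-tRNA_Arg(CCG), by 1.89 ± 0.58, and with Arg-tRNA_Trp(CCA), from 0.248 to 0 CPM, again near the floor. It was lower but not called with Arg-tRNA_Cys(GCA) (-0.66 ± 0.53) and Arg-tRNA_His(GUG) (-0.46 ± 0.86). With Ser-tRNA_Arg(CCG) 14 rose and 12 fell, with Arg-tRNA_Cys(GCA) 16 and 14, with Arg-tRNA_His(GUG) 4 and 0, and with Arg-tRNA_Trp(CCA) 11 and 16. Of all genes 26.6% rose and 30.7% fell with the first, 30.2% and 30.5% with the second, 1.56% and 0.95% with the third and 20.7% and 21.7% with the last, and the lists below are read beside these shares. Library totals turned the split with Arg-tRNA_Cys(GCA) to 9 and 25.

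With Arg-tRNA_Cys(GCA) 6 of the 8 tested keratins rose and none fell, with a median change of 1.05, among them KRT8 (1.49 ± 0.10), KRT10 (1.47 ± 0.10), KRT18 (1.43 ± 0.09) and KRT7 (1.09 ± 0.12), in the comparison where KRT3 fell by 2.86 ± 0.42. With library totals all 6 were smaller: KRT8 was at 0.94, KRT10 at 0.92, KRT18 at 0.88, KRT7 at 0.54 and KRT16 at 0.28 (0.83 with TMM), and KRT17, at 1.02 with TMM, lost its call (0.48, edgeR adjusted p = 0.263). Summed keratinocyte markers were higher in those libraries too, at 39.5 to 44.6 CPM against 12.6 to 16.0 in EGFP(R96C) alone. KRT10 gave nearly all of that sum, with KRT1, KRT5 and KRT14 near 0. Since KRT10 is also among the 6 risen keratins, the sum is no separate measure. The part of the marker genes in the keratin result was not tested. Summed cornea markers were 175.5 to 199.5 CPM against 9.73 to 10.99, from CLU, with KRT12 near 0.

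Of 16 tested partners of myopalladin and Z-disc genes, none was called with Arg-tRNA_Gln(CUG) in edgeR, where MYPN fell. ANKRD1, a muscle ankyrin repeat protein that binds myopalladin, rose with Arg-tRNA_Cys(GCA) by 4.64 ± 0.31 and fell with Ser-tRNA_Arg(CCG) (-3.09 ± 0.30) and with Arg-tRNA_Trp(CCA) (-1.44 ± 0.27). NEB, the nebulin gene, rose with Ser-tRNA_Arg(CCG) by 3.12 ± 0.24 and with Arg-tRNA_His(GUG) by 1.30 ± 0.30. Summed muscle markers were 7.96 to 10.2 CPM with Ser-tRNA_Arg(CCG) against 2.69 to 2.75 in EGFP(R65) alone. With Arg-tRNA_Cys(GCA) they were 12.5 to 14.2 CPM against 6.68 to 7.58 in EGFP(R96C) alone, and in the other comparisons the ranges overlapped. Of these markers MYH7, MYH6, MYOG and TNNT2 each stayed at or under 0.285 CPM in all libraries. The part of the markers was not tested. The directions of ANKRD1 thus differed between mc-tRNAs with which MYPN was lower each time.

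Among 5 tested channels related to CALHM1, 3 fell with Ser-tRNA_Arg(CCG), led by CALHM2, and with Arg-tRNA_Cys(GCA) 3 fell and CALHM5 rose (0.83 ± 0.23), a call that was lost with library totals (0.29, edgeR adjusted p = 0.257). Of 6 genes of N-acyl amino acid and M20 peptidase function, 4 fell with Arg-tRNA_Cys(GCA), NAAA (-1.20 ± 0.10) and ACY1 (-1.15 ± 0.29) most. FAAH, which splits fatty acid amides, rose with Ser-tRNA_Arg(CCG) by 1.10 ± 0.12. It fell with Arg-tRNA_Cys(GCA) (-0.89 ± 0.13) and with Arg-tRNA_Trp(CCA) (-0.79 ± 0.13). Of 8 insulin receptor substrates and receptors, 3 rose and 1 fell with Ser-tRNA_Arg(CCG). With Arg-tRNA_Cys(GCA) 3 rose and 2 fell, and with Arg-tRNA_Trp(CCA) 4 rose and 2 fell. IRS4, the substrate best known from HEK293 cells, fell with Ser-tRNA_Arg(CCG) by 1.85 ± 0.09, with Arg-tRNA_Cys(GCA) by 1.99 ± 0.08 and with Arg-tRNA_Trp(CCA) by 0.76 ± 0.08. IRS3P rose in the second of these comparisons and fell in the other 2.

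A mapping or plasmid source was looked at as far as the files allow. Besides genes and ERCC sequences they hold 0 rows for EGFP, mCherry or a plasmid, and the plasmid sequence was not used here, so whether plasmid reads enter these counts was not tested. No stretch of 31 bases is shared between transcripts of any pair of the 10 genes. The share of a gene's 31-base stretches found in transcripts of other genes was 0% in PM20D1, 0.86% in CALHM1, 1.04% in MYPN, 1.99% in LINC00858, 4.32% in C6orf163, 4.82% in JAZF1-AS1, 6.47% in LINC00485, 9.79% in KRT3, 16.2% in IRS3P and 32.2% in F11-AS1.

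For F11-AS1 most of that sharing was with ENSG00000272297, which had 0 counts in all 30 libraries, and with F11. KRT3 shared most with KRT76, a palate keratin with 2 counts over the 15 libraries without mc-tRNA and 3 over the 15 with it. SLC35E3, which shares stretches with IRS3P, had 4152 counts in EGFP(R96Q) alone and 4514 with Arg-tRNA_Gln(CUG), where IRS3P had 234 and 16. ZNF493, which shares stretches with LINC00485 on the opposite strand, had 930 and 1040 counts, where LINC00485 had 345 and 44. Over the 15 libraries without and the 15 with an mc-tRNA, however, SLC35E3 had 16803 and 12394 counts and ZNF493 5505 and 4860. Some sharing genes were lower with Arg-tRNA_Gln(CUG) as well: EXD1, which shares with IRS3P, had 17 and 12 counts, AC011726.2, which shares with CALHM1, 9 and 3, and MIXL1, which shares with MYPN, 93 and 89. These values are descriptions, and the part of shared sequence in the changes was not tested.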

How the data were processed

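Files of raw counts, as deposited by the authors, gave 1 value per gene and library. STAR, SAMtools and featureCounts on build hg38 are named in the submitters' processing notes; versions, annotation and the strand setting were not given in the sources used here. Counts were analysed in edgeR 4.0.16 (R 4.3.3) by a robust quasi-likelihood model of 10 group means over 30 libraries, with TMM factors, filterByExpr and 20 residual degrees of freedom. The biological coefficient of variation was 8.24%, and p-values were Benjamini-Hochberg adjusted over 22321 genes. The fit was tested on simulated data. DESeq2 1.42.0, other scalings, no filter, fewer libraries and a replicate block were alternatives. The members and gene lists were chosen with earlier results of these data known. Named were all members, overlapping neighbours, other neighbours called with at least a 2-fold change, the 5 genes most and the 5 least like the mean profile (log2 CPM, prior count 2), and up to 4 called genes per list and comparison. Other names, TEKT2, PLAC1, TNFRSF19, ENSG00000251131, ENSG00000236075, KRT16, KRT17 and the genes sharing sequence among them, were chosen after their values were seen.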

Additional observations from a re-analysis of the deposited data

Results flagged for a closer look

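IRS3P moved in opposite directions in different comparisons, with no overlap between the libraries with and without the mc-tRNA in any of them. Its log2 change was 1.24 with Arg-tRNA_Cys(GCA), where it was higher, and -3.91 with Arg-tRNA_Gln(CUG), -1.87 with Arg-tRNA_Trp(CCA), -2.02 with Arg-tRNA_His(GUG) and -1.18 with Ser-tRNA_Arg(CCG), where it was lower. The difference between these changes was not tested.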

How the results depend on the processing

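Of 638 recomputed changes of single members, 603 were counted as unchanged, including all 130 each for Arg-tRNA_Gln(CUG), Arg-tRNA_Cys(GCA) and Arg-tRNA_Trp(CCA). These kept their direction and their side of the threshold, or only their direction where a refit gave no adjusted p. Of the others, 26 were no longer called, 6 were newly called and 3 reversed. The reversed values were those of JAZF1-AS1 with Ser-tRNA_Arg(CCG), at -0.01, -0.16 and -0.11 without EGFP(R65) replicate 1, EGFP(R65) replicate 3 and Ser-tRNA_Arg(CCG) replicate 2; over all 6 libraries left out in turn it was -0.16 to 0.57. Leaving out 1 library at a time gave 2 to 4 members that fell with Arg-tRNA_His(GUG) (5 with all libraries), 0 to 3 list genes called there (4), and 5 to 8 neighbours called with Arg-tRNA_Cys(GCA) (8). Without the EGFP(R65) libraries 3 members fell and 2 list genes were called with Arg-tRNA_His(GUG). List genes called there were 2 with library totals and 8 with only the 6 libraries compared, and neighbours called were 1 with DESeq2 and 1 with those 6 libraries. With Arg-tRNA_Gln(CUG) 2 list genes were called with no filter. The causes were not tested.

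The count of 19 genes that fell in at least 4 comparisons, 8 of them members, moved under alternatives chosen after seeing the data. It was 32 with library totals (9 of them members) and 12 with only the 6 libraries compared (9 members). With DESeq2 it was 27 (7 members), with no filter 24 (9 members) and with RLE factors 19 (8 members). Over all genes, library totals turned the share of calls that fell from 50.2% to 79.8% with Arg-tRNA_Cys(GCA), from 51.2% to 68.6% with Arg-tRNA_Trp(CCA), where the median of all genes became -0.16, from 50.4% to 61.7% with Arg-tRNA_Gln(CUG) and from 37.9% to 51.6% with Arg-tRNA_His(GUG). Members near the floor of 3 counts, CALHM1 above all, have changes that depth limits to a bound.

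The labels number replicates 1 to 3 in every group. Deviations of same-numbered libraries from their group means had r of -0.08 to 0.14 over genes. The labels do not say whether these libraries belong together, and such values cannot decide it. A replicate block changed the calls over all genes. With Arg-tRNA_Gln(CUG) 107 fell and 124 rose, against 62 and 61 in the main fit. For Arg-tRNA_His(GUG) these were 472 and 652, against 212 and 348. In the other comparisons the counts grew less in proportion. With a replicate block 2 list genes were called with Arg-tRNA_Gln(CUG) and 29 genes fell in at least 4 comparisons; C6orf163 passed with Ser-tRNA_Arg(CCG), at -0.59.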
